A study of Narcissus tazetta subsp. chinensis with 8 samples.

Results

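The genes described here are 80 assembled genes of the narcissus flower whose descriptions name a receptor-like kinase, a receptor kinase, another protein kinase or a CBL-interacting kinase. They were picked by those words from the Swiss-Prot and nr descriptions that the authors deposited for 1929 genes, out of 81096 genes listed in either tissue. No gene was lost to the further condition that the description must not name brassinosteroid or ethylene, and 77 of the 80 met the wording through Swiss-Prot alone. Transcript levels came from RNA sequencing of Narcissus tazetta subsp. chinensis cv Jinzhanyintai, a scented Chinese narcissus grown in a plantation, with no treatment named. The 4 groups were corolla on day 7 (full bloom), corolla on day 1 (early flowering), petal on day 7 and petal on day 1, each with 2 libraries from biological repeats. All libraries came from this 1 cultivar. Neither the number of flowers or plants behind a repeat nor the way corolla was separated from petal is stated in the labels, so the p-values below measure only the spread between these repeats.

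Protein kinases attach phosphate to other proteins and so pass signals on. Plants carry an unusually large family of receptor-like kinases, which sit in the plasma membrane with a sensing part outside the cell (leucine-rich repeats, a lectin domain, a malectin-like domain or a proline-rich stretch) and a kinase domain inside. Inside the cell, receptor-like cytoplasmic kinases relay signals from these receptors, MAP kinase cascades pass them on in steps, and calcium-dependent and CBL-interacting kinases answer to calcium. In flowers, members of these families are known from Arabidopsis for roles in cell growth, in fertilisation and in the shedding of petals.

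The authors described only genes that they had called as changed between the days. In their deposited tables the called genes had an FDR of at most 0.00999 in corolla and 0.00995 in petal, with an absolute log2 fold change of at least 1.00 and 1.14. A kinase gene is therefore among the 80 because it differed between day 7 and day 1 in at least 1 tissue: 43 were called in corolla only, 22 in petal only and 15 in both. For the tissue of the call, day 7 and day 1 values are given as a description without a test. Tests were kept for contrasts other than that of the call. These are the day difference in the other tissue and the difference between corolla and petal averaged over both days. The average draws on the same libraries as the calls. A gene high in 1 group alone would be called by day and also be shifted in that average. Members are therefore set beside the other described genes, which were chosen in the same way. Kinase genes without such a call carry no description here and are not among the 80.

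The wording was checked against the protein domains in the deposited descriptions. A Pfam kinase domain was listed for 58 of the 80 genes, 24 had Pfam leucine-rich repeats, and 7 had no Pfam entry at all. By description 50 belonged to receptor classes of the cell surface and 26 to other kinases. Another 2 were gamma regulatory subunits of SNF1-related kinase, which are not kinases themselves. The last 2 were named as other proteins by Swiss-Prot, ESCAROLA (a DNA-binding protein) and the ER lumen protein-retaining receptor, and came in through a word in a description. Assembled genes can be fragments of 1 transcript, and 2 of the 80 (c100334.graph_c0 and c100334.graph_c2) came from the same component of the assembly.

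Levels are FPKM, fragment counts divided by transcript length and by the library's mapped fragments, as deposited by the authors. Total counts per library are not known, but counts divided by FPKM gave a depth of 0.678 to 1.03 relative to corolla day 1 repeat 1, with day 7 repeat 2 the shallowest in each tissue. For genes called in both tissues that ratio varied little from gene to gene (5th to 95th percentile 0.602 to 0.801 in the shallowest library), so the tables of both tissues were taken to share 1 scale. Averaged over the 8 libraries the members ran from 0.259 to 200.1 FPKM with a median of 7.32. There were 19 above 20 FPKM and 9 under 1 FPKM. The median member called in corolla had a mean of 238.6 counts per library and the median member called in petal had 114.0, while 10 members in each tissue had under 50 and are known with less precision. Summed over 32 described photosynthesis genes, green-tissue transcripts reached 1511 and 1279 FPKM in the corolla libraries of day 7, against 5719 and 5490 FPKM on day 1. The petal sums cover 31 of these genes, since 1 has no petal values, and were 609 and 586 FPKM on day 7, against 1561 and 1566 FPKM on day 1. At 1 FPKM or more, 27 or 28 of the 32 were detected in corolla on day 7 and 32 on day 1, and 23 to 27 of the 31 in petal, with at most 1 listed at 0 in any library. For 7 pollen and anther genes the sums were 240.0 and 144 FPKM in corolla on day 7, against 129 and 186 FPKM on day 1. In petal they were 54.6 and 49.98 FPKM on day 7, against 106 and 84.1 FPKM on day 1. By group mean 3 of the 7 were higher and 4 lower on day 7 in either tissue, and 2 genes of the C13 type made up most of the corolla sums of day 7. Of these 7 genes, 5 to 7 were detected per library and at most 1 was listed at 0. Marker genes that set corolla apart from petal in this species are not given in the sources used here, so the tissue labels were taken as they stand. In such bulk tissue, fewer cells of a type and less RNA per cell cannot be told apart.

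More of the kinase genes were lower at full bloom than higher in either tissue, and the same lean was larger among the other described genes. By the authors' deposited tables, 26 of the 58 members called in corolla rose and 32 fell, and 15 of the 37 called in petal rose and 22 fell. The authors called 2.65% of 64490 genes in corolla and 1.57% of 67182 genes in petal. Since the members were picked from those calls, their count cannot be read against that background. Among all other described genes 30.9% of 1459 rose in corolla and 34.3% of 843 rose in petal, against 44.8% and 40.5% of the kinase members. The 15 members called in both tissues had the same direction in each, with 5 higher and 10 lower on day 7. Summed over all 80 genes, the members held 0.139% and 0.125% of all FPKM in corolla on day 7, against 0.207% and 0.198% on day 1. In petal their share was 0.147% in each day 7 library, against 0.204% and 0.190% on day 1.

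**Figure D1:**
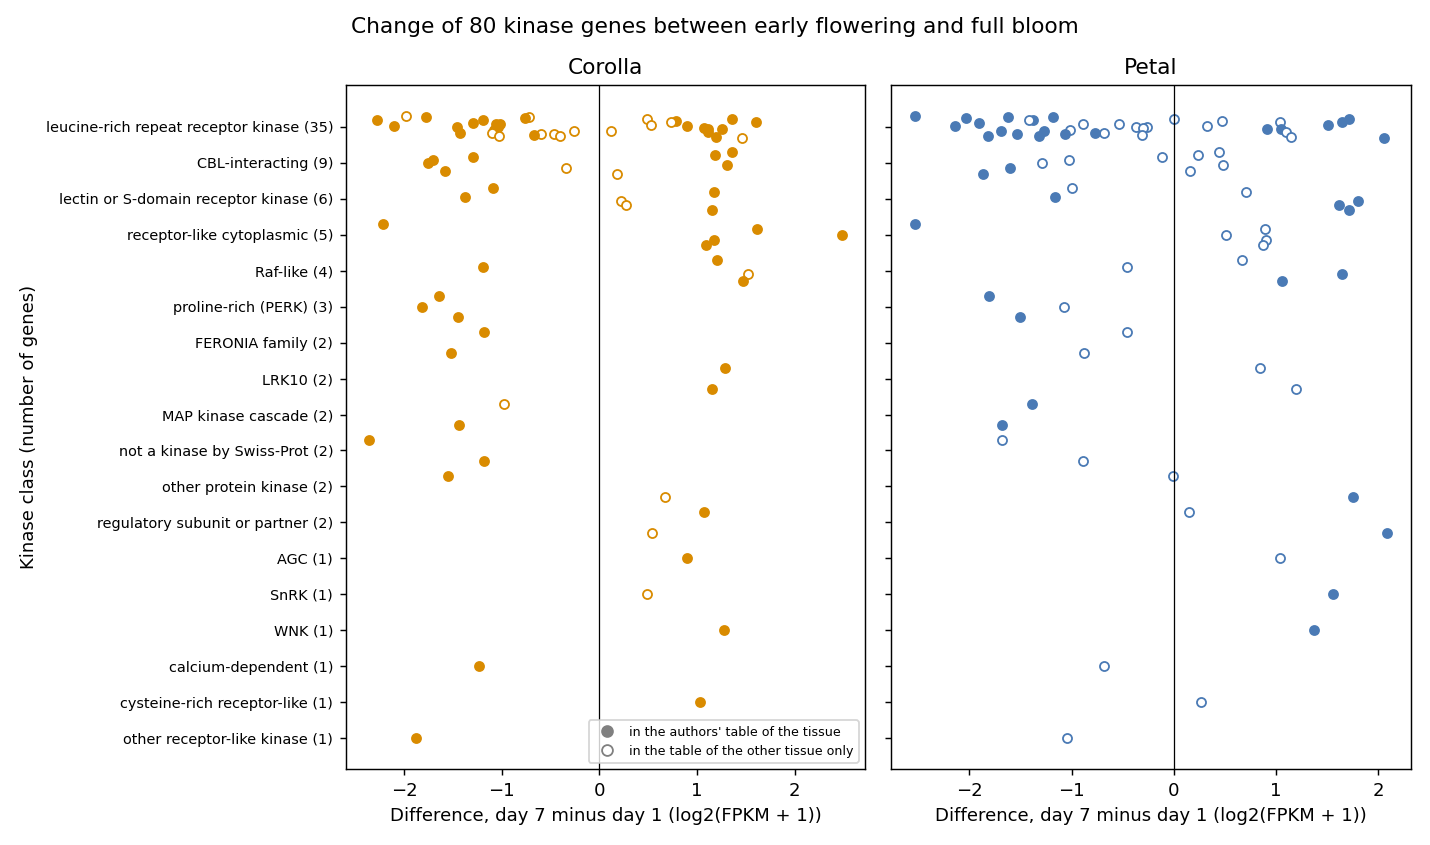
Difference between day 7 and day 1 (log2(FPKM + 1), horizontal axis) of each of the 80 genes, by kinase class (rows) in corolla (left) and petal (right); filled points are genes in the authors' table of that tissue and open points genes described through the other tissue only. The 3 PERK genes and both FERONIA family genes lie left of 0 in both panels, both LRK10 genes lie right of 0, and the 35 leucine-rich repeat kinases and the 9 CBL-interacting kinases lie on both sides.

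Leucine-rich repeat receptor kinases, which bind peptides, hormones or partner receptors through repeats outside the cell, made up 35 of the 80. The class rests on the descriptions, and some of its genes had no Pfam leucine-rich repeats, among them c105042.graph_c0 and c105043.graph_c0. In nr the latter is named dual specificity protein kinase zakA. The authors' deposited tables call 9 higher and 13 lower in corolla, and 6 higher and 14 lower in petal. The most abundant was a probable inactive receptor kinase (At1g48480 in Swiss-Prot; c107260.graph_c0), of a kind that lacks residues needed for catalysis. It had 7.40 and 6.45 FPKM in corolla on day 7, against 39.5 and 27.5 FPKM on day 1. In petal it had 22.6 and 26.2 FPKM on day 7, against 120.2 and 102 FPKM on day 1. Both day 7 libraries thus lay below both day 1 libraries in each tissue, with differences of -2.10 in corolla and -2.14 in petal on the log2(FPKM + 1) scale, while the levels in petal were higher than those in corolla on both days. A close relative with the same Swiss-Prot hit, c102141.graph_c0, had 22.0 and 25.1 FPKM in petal on day 7, against 60.02 and 49.7 FPKM on day 1.

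The other leucine-rich repeat kinases that were lowest at bloom were weakly to moderately expressed. The At1g68400-like kinase c104364.graph_c0 had 3.05 and 2.01 FPKM in corolla on day 7, against 17.8 and 14.1 FPKM on day 1. In petal the same gene had 4.72 and 6.25 FPKM on day 7, against 16.3 and 15.2 FPKM on day 1. PXL2 (c102495.graph_c0), a relative of the Arabidopsis receptor PXY that guides vascular cell division, was near 0 in petal at bloom. It had 0.07 FPKM in each petal library of day 7, against 3.71 and 3.07 FPKM on day 1, and 0.25 and 0.21 FPKM in corolla on day 7, against 1.18 and 0.98 FPKM on day 1. The At1g74360-like kinase c105043.graph_c0 had 0.82 and 1.43 FPKM in petal on day 7, against 6.82 and 6.89 FPKM on day 1. In these 3 genes the day 7 libraries stood below the day 1 libraries in both tissues. The petal fall of c100334.graph_c2 (At4g30520-like) was of like size, with 1.67 and 2.91 FPKM on day 7 against 19.5 and 16.1 FPKM on day 1. This gene had no Pfam entry, and its place in this class rests on Swiss-Prot. In nr it is named CDL1-like, as is c100334.graph_c0 of the same component, which was classed as receptor-like cytoplasmic. Another petal gene that was lower at bloom, the At4g36180-like c92008.graph_c0, had 1.46 and 1.28 FPKM on day 7, against 8.23 and 6.53 FPKM on day 1. The inactive At1g66830-like c69733.graph_c0 had 0 counts in both petal libraries of day 7, against 22 and 13 counts on day 1. Set at 3 counts per library for day 7, this made it at least 4.98-fold lower.

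TMK1, in Arabidopsis a receptor kinase of auxin signalling at the plasma membrane, was hit by 3 genes that did not move together. The gene c102467.graph_c0 had 3.43 and 2.25 FPKM in corolla on day 7, against 13.3 and 10.7 FPKM on day 1. It had 7.75 and 6.53 FPKM in petal on day 7, against 24.0 FPKM in each petal library of day 1. A second one, c109157.graph_c0, was also lower in corolla at bloom, with 23.7 and 19.0 FPKM on day 7 against 47.3 and 44.7 FPKM on day 1. The third, c98968.graph_c1, was higher there, with 24.2 and 17.4 FPKM on day 7 against 8.74 and 8.12 FPKM on day 1. Receptors of the CLAVATA group, which bind short CLE peptides and in Arabidopsis control the size of the stem cell pool, also split. The CLAVATA1-like gene c109117.graph_c0 had 31.0 and 26.2 FPKM in corolla on day 7, against 10.02 and 15.9 FPKM on day 1. In petal its levels were 59.8 and 52.7 FPKM on day 7, against 31.6 and 27.4 FPKM on day 1, so it was higher at bloom in every library of either tissue. The BAM1-like gene c104416.graph_c0 had 1.59 and 1.47 FPKM in corolla on day 7, against 5.29 and 4.28 FPKM on day 1. The BAM3-like gene c107943.graph_c0 had 0.66 and 0.72 FPKM in corolla on day 7, against 3.58 and 3.71 FPKM on day 1. RPK2 (c79836.graph_c0), which in Arabidopsis also takes part in CLE peptide signalling, was the least expressed of these, at 0.04 and 0.06 FPKM in corolla on day 7 against 0.88 and 0.49 FPKM on day 1.

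Several leucine-rich repeat kinases were higher at bloom. The At3g14840-like gene c105042.graph_c0 had 5.70 and 6.02 FPKM in corolla on day 7, against 1.32 and 1.21 FPKM on day 1. The At5g49770-like c104110.graph_c1 had 25.9 and 24.3 FPKM in corolla on day 7, against 8.64 and 9.76 FPKM on day 1. Its petal levels of 25.7 and 32.3 FPKM on day 7 overlapped with 28.1 and 29.5 FPKM on day 1. A gene hit by the nodulation receptor kinase, known from legumes as a receptor of root symbiosis, was higher at bloom in both tissues (c108943.graph_c0). It had 10.5 and 10.7 FPKM in corolla on day 7, against 4.35 and 3.40 FPKM on day 1, and 12.6 and 16.0 FPKM in petal on day 7, against 5.91 and 6.78 FPKM on day 1. Somatic embryogenesis receptor kinase 1 (SERK1, c99769.graph_c0), whose Arabidopsis relatives serve as partners of many ligand-binding receptors, had 2.07 and 5.02 FPKM in petal on day 7, against 0.07 FPKM in 1 petal library of day 1 and a listing at 0 in the other. In corolla it had 2.93 and 0.93 FPKM on day 7 and was listed at 0 in both libraries of day 1. The petal libraries also held more of c104185.graph_c0 (At2g23950-like) at bloom, with 5.55 and 8.81 FPKM on day 7 against 1.64 and 1.26 FPKM on day 1. For c105010.graph_c0 (At3g47570-like) the petal levels were 3.57 and 2.59 FPKM on day 7, against 0.17 and 0.43 FPKM on day 1. In these petal genes both libraries of day 7 were above both of day 1. HSL1 (c107592.graph_c0), a relative of the HAESA receptor that controls petal shedding in Arabidopsis, had 1.30 and 1.40 FPKM in corolla on day 7, against 0.19 and 0.34 FPKM on day 1. EXS (c111016.graph_c1), needed in Arabidopsis anthers for the tapetum, was lower in petal at bloom, with 0.12 and 0.18 FPKM on day 7 against 0.60 and 1.42 FPKM on day 1.

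The 6 receptor kinases with a lectin or S-domain, whose outer part resembles sugar-binding proteins, included the most abundant gene described as a surface receptor. This was SD1-7 (c103969.graph_c0), placed by its description alone, since it had no Pfam entry. It had 121 and 127 FPKM in corolla on day 7, against 275 and 255 FPKM on day 1. In petal it had 93.8 and 139 FPKM on day 7, against 237 and 222 FPKM on day 1. Its relative SD1-6 (c96262.graph_c0) had the opposite pattern at a low level, with 4.75 and 4.33 FPKM in petal on day 7 against 0.47 and 0.95 FPKM on day 1. In corolla it had 31 and 12 counts on day 7 and 0 counts in both libraries of day 1, at least 7.26-fold higher with day 1 set at 3 counts per library. The G-type lectin kinase At2g19130 (c108134.graph_c0) was lower at bloom, with 0.74 and 0.67 FPKM in corolla on day 7 against 3.84 and 3.06 FPKM on day 1. All 3 L-type lectin kinases were higher at bloom in the tissue of their call. Lectin kinase IV.1 (c104431.graph_c0) had 1.61 and 1.43 FPKM in corolla on day 7, against 0.07 and 0.17 FPKM on day 1. The IV.4-like gene c70206.graph_c0 had 2.06 and 3.43 FPKM in petal on day 7, against 0.11 FPKM in 1 library of day 1 and a listing at 0 in the other. The V.9-like gene c87755.graph_c0 had nearly the same profile, with 1.78 and 2.85 FPKM in petal on day 7 against a listing at 0 in 1 library of day 1 and 0.14 FPKM in the other. The first of this pair carried a Pfam kinase domain and the second did not, and whether they are parts of 1 transcript was not tested.

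Proline-rich PERK receptors, which have been linked to the cell wall in other plants, and the FERONIA family, which binds RALF peptides and monitors the wall in Arabidopsis, had lower levels at bloom in the tissue of their calls. The 3 PERK1-like genes, none of which carried a Pfam kinase domain, were called lower in corolla by the authors, and 2 of them also in petal. The most abundant, c95177.graph_c0, had 2.83 and 2.92 FPKM in corolla on day 7, against 9.99 and 9.20 FPKM on day 1. In petal it had 6.63 and 5.28 FPKM on day 7, against 18.7 and 18.6 FPKM on day 1. The gene c104858.graph_c0 had 2.80 and 2.59 FPKM in petal on day 7, against 13.1 and 10.9 FPKM on day 1. The third, c108486.graph_c1, had 1.09 and 0.37 FPKM in corolla on day 7, against 4.42 and 5.59 FPKM on day 1. Its petal difference, -1.08 on the log2(FPKM + 1) scale, did not pass (limma adjusted p = 0.0879). FERONIA (c109478.graph_c0) had 32.3 and 28.7 FPKM in corolla on day 7, against 90.3 and 87.4 FPKM on day 1. Its petal levels were 25.9 and 29.9 FPKM on day 7, against 53.3 and 50.5 FPKM on day 1. The other member of the family, hit by At1g30570 (c102848.graph_c0), had 14.1 and 10.9 FPKM in corolla on day 7, against 32.9 and 26.4 FPKM on day 1. Its petal levels were 9.80 and 10.2 FPKM on day 7, against 15.5 and 12.8 FPKM on day 1, a difference that did not pass (limma adjusted p = 0.162).

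The remaining surface receptors fell into 3 small classes. The 2 LRK10-type genes, both hit by At1g18390, were higher in corolla at bloom. The more abundant, c105175.graph_c0, had 16.1 and 10.3 FPKM in corolla on day 7, against 3.78 and 5.83 FPKM on day 1, and c99068.graph_c0 had 2.17 and 1.17 FPKM on day 7, against 0.26 and 0.10 FPKM on day 1. Cysteine-rich receptor-like kinase CRK10 (c109893.graph_c0) had 8.02 and 10.4 FPKM in corolla on day 7, against 3.69 and 4.26 FPKM on day 1. The receptor-like kinase At1g33260 (c107497.graph_c1) was lower at bloom, with 9.02 and 10.5 FPKM in corolla on day 7 against 40.1 and 36.7 FPKM on day 1. In each of these genes both corolla libraries of day 7 lay on the same side of both libraries of day 1.

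Receptor-like cytoplasmic kinases, which lack a sensing part and act just behind the surface receptors, were mostly higher at bloom: 4 of the 5 rose and 1 fell by the authors' deposited table of corolla. The At5g01020-like gene c103753.graph_c0 had the largest corolla rise on the log2(FPKM + 1) scale among the members called there. It had no Pfam entry and is a hypothetical protein in nr, so its class rests on Swiss-Prot. Its levels were 7.64 and 4.08 FPKM on day 7 against 0.32 and 0.07 FPKM on day 1, a difference of 2.48 on the log2(FPKM + 1) scale. CDL1 (c101983.graph_c0) had 7.11 and 5.76 FPKM in corolla on day 7, against 0.67 and 2.52 FPKM on day 1. The more abundant c108152.graph_c0 (At5g47070-like) had 47.6 and 32.7 FPKM on day 7, against 17.9 and 18.0 FPKM on day 1. The gene c107481.graph_c4, hit by At4g35230 (in Arabidopsis a kinase of the BSK family, known from brassinosteroid signalling), had 40.5 and 31.9 FPKM in corolla on day 7, against 13.8 and 17.1 FPKM on day 1. The exception was the At3g07070-like c100334.graph_c0, which was lower in both tissues. It had 2.16 and 1.77 FPKM in corolla on day 7, against 15.2 and 10.7 FPKM on day 1. Its petal levels were 4.87 and 4.34 FPKM on day 7, against 36.5 and 27.0 FPKM on day 1. It had the largest fall on the log2(FPKM + 1) scale among the members called in petal, a difference of -2.53. The other assembled gene of its component, c100334.graph_c2, had the same direction in both tissues, so the pair may not be independent.

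Both MAP kinase cascade genes, MKKK2 and MKK3, were lower at bloom. MKKK2 (named mitogen-activated protein kinase kinase kinase 2; c107608.graph_c2), from a family of Arabidopsis kinases at the top of such a cascade, had 40.7 and 49.5 FPKM in corolla on day 7, against 129 and 117 FPKM on day 1. Its petal levels were 27.7 and 34.7 FPKM on day 7, against 112 and 91.9 FPKM on day 1. MKK3 (c104303.graph_c0), a middle step of a cascade, had 45.1 and 49.2 FPKM in petal on day 7, against 124 and 126 FPKM on day 1. Raf-like kinases, which resemble the top tier of MAP kinase cascades, were higher at bloom in 3 of 4 genes. EDR1 (c109298.graph_c1), a negative regulator of defence and of senescence in Arabidopsis, was called in both tissues. It had 21.4 and 18.1 FPKM in corolla on day 7, against 6.15 and 6.82 FPKM on day 1, and 25.1 and 26.0 FPKM in petal on day 7, against 11.7 and 11.8 FPKM on day 1. A pair of genes was hit by CTR1, in Arabidopsis the repressor of the ethylene response. The first, c101269.graph_c0, had 14.1 and 12.8 FPKM in corolla on day 7, against 4.80 and 5.84 FPKM on day 1. The second, c106314.graph_c0, had 16.8 and 14.2 FPKM in petal on day 7, against 3.88 and 4.65 FPKM on day 1. HT1 (c106240.graph_c1), in Arabidopsis a kinase of stomatal movement in response to carbon dioxide, was the exception, with 17.5 and 18.6 FPKM in corolla on day 7 against 44.9 and 40.5 FPKM on day 1.

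Calcium-linked kinases were represented by 1 calcium-dependent kinase and 9 CBL-interacting kinases. Calcium-dependent kinases bind calcium themselves. CBL-interacting kinases (CIPKs) are switched on by calcineurin B-like calcium sensors that dock at their NAF domain. CDPK3 (c110043.graph_c0) was the most abundant of all 80 genes, with 156 and 148 FPKM in corolla on day 7, against 344 and 374 FPKM on day 1. The petal libraries held 102 and 120.1 FPKM on day 7, against 182 and 175 FPKM on day 1. Levels at bloom were thus lower than at early flowering in both tissues, and the authors called it in corolla only.

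The 9 CIPK genes moved in both directions. Of these, 3 rose and 4 fell in corolla, and 2 fell in petal, by the authors' deposited tables. CIPK1 was hit by 3 assembled genes. The most abundant, c102772.graph_c0, had 107 and 89.7 FPKM in corolla on day 7, against 33.2 and 42.4 FPKM on day 1. The second, c110840.graph_c0, had 76.0 and 64.3 FPKM in corolla on day 7, against 24.5 and 31.4 FPKM on day 1. These profiles were nearly proportional in all 8 libraries, and whether both genes are pieces of 1 transcript was not tested. The third CIPK1 gene, c97134.graph_c0, went the other way at a low level, with 1.57 and 2.87 FPKM in corolla on day 7 against 7.49 and 9.41 FPKM on day 1. The gene c104731.graph_c1 is CIPK8 by Swiss-Prot, in Arabidopsis a nitrate-responsive kinase, but is named serine/threonine-protein kinase ULK3 in nr. Its place among the CIPK genes thus rests on Swiss-Prot. It had 10.5 and 7.58 FPKM in corolla on day 7, against 3.51 and 3.23 FPKM on day 1.

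The CIPK genes that were lower at bloom differed in where they did so. CIPK2 (c108868.graph_c1) had 20.01 and 18.6 FPKM in corolla on day 7, against 67.7 and 62.3 FPKM on day 1, and in petal 24.7 and 26.2 FPKM on day 7, against 54.7 and 51.2 FPKM on day 1. CIPK10 (c109413.graph_c0) had 2.18 and 3.45 FPKM in corolla on day 7, against 12.3 and 11.1 FPKM on day 1, and in petal 3.26 and 5.02 FPKM on day 7, against 12.1 and 10.8 FPKM on day 1. CIPK32 (c105307.graph_c1) had 41.0 and 29.2 FPKM in corolla on day 7, against 90.4 and 82.3 FPKM on day 1. Its petal levels, 46.1 and 36.3 FPKM on day 7 and 46.2 and 42.9 FPKM on day 1, overlapped. CIPK6 (c99492.graph_c0) was high in a single group, petal at early flowering: it had 7.36 and 4.88 FPKM in petal on day 7, against 27.0 and 22.5 FPKM on day 1. In corolla it had 4.34 and 3.66 FPKM on day 7, against 6 and 1.78 FPKM on day 1. CIPK5 (c93100.graph_c0) had the same shape, with 3.05 and 3.84 FPKM in petal on day 7 against 13.5 and 11.5 FPKM on day 1, while its corolla levels of 2.84 and 1.87 FPKM on day 7 overlapped with 4.42 and 2.26 FPKM on day 1. Whether the day difference of such a gene differs between the tissues was not tested, because the choice of the members used 1 side of that comparison.

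**Figure D2:**
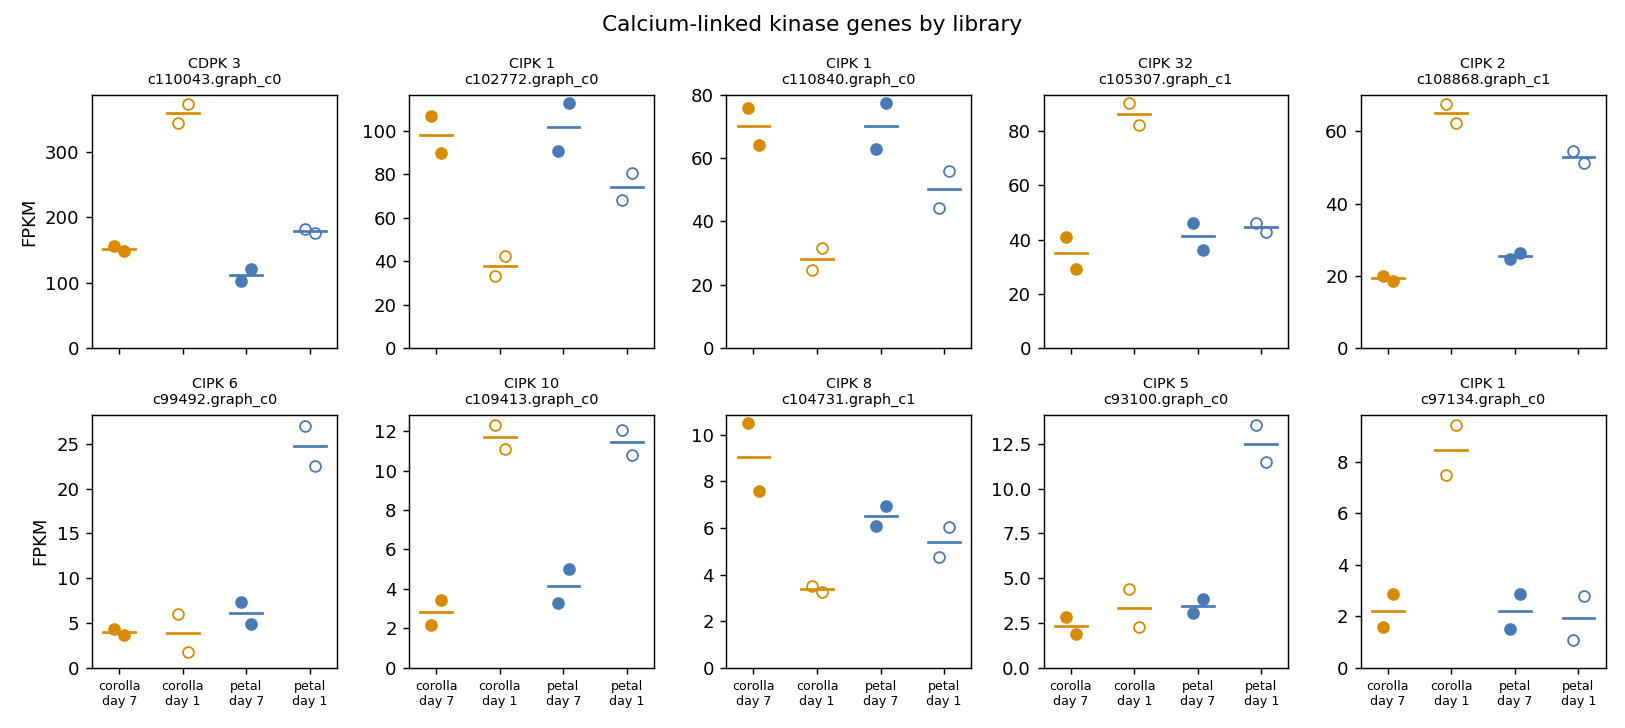
FPKM (vertical axes, each panel on its own scale from 0) of the calcium-dependent kinase and the 9 CBL-interacting kinases in each of the 8 libraries; points are libraries (filled for day 7, open for day 1) and lines are means of 2 libraries. CIPK6 and CIPK5 stand out in petal on day 1, the third CIPK1 gene in corolla on day 1, and the first pair of CIPK1 genes is lowest in corolla on day 1.

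The other soluble kinases were single genes. WNK5 (c105877.graph_c0), of a family named for a missing lysine in the catalytic site, had 16.4 and 14.9 FPKM in corolla on day 7, against 5.18 and 6.63 FPKM on day 1. Its petal levels were 45.4 and 45.7 FPKM on day 7, against 17.7 and 16.4 FPKM on day 1. SAPK3 (c93736.graph_c0), a rice-named kinase of the SnRK2 family that acts in osmotic stress and abscisic acid responses, had 6.55 and 5.62 FPKM in petal on day 7, against 1.25 and 1.55 FPKM on day 1. IREH1 (c89323.graph_c0), an AGC kinase, had 17.1 and 13.0 FPKM in corolla on day 7, against 7.50 and 7.56 FPKM on day 1. These 3 were higher at bloom in every library of the tissue of their call. STN8 (c103218.graph_c0), which in Arabidopsis phosphorylates photosystem II proteins in the thylakoid, was lower, with 3.76 and 2.13 FPKM in corolla on day 7 against 11.3 and 9.30 FPKM on day 1. Its corolla difference went with that of the green-tissue sums given above, and the part of green tissue in it was not tested. In petal, where those sums were also lower on day 7, STN8 had 1.37 and 0.92 FPKM on day 7, against 0.99 and 1.32 FPKM on day 1, and the days overlapped. The At3g51990-like kinase c99375.graph_c0 had 4.90 and 3.27 FPKM in petal on day 7, against 0.47 and 0.51 FPKM on day 1.

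Among the 4 members that are not kinases, both SNF1-related gamma subunits were higher at bloom in the tissue of their call. The gamma-1 subunit (c106446.graph_c0), part of the energy-sensing SnRK1 complex, had 9.93 and 7.41 FPKM in corolla on day 7, against 4.34 and 2.93 FPKM on day 1, and overlapping petal levels of 6.48 and 6.71 FPKM on day 7 and 4.73 and 7.18 FPKM on day 1. The gamma-like PV42a (c98061.graph_c0) had 7.25 and 6.38 FPKM in petal on day 7, against 0.86 and 0.82 FPKM on day 1. It had the largest rise on the log2(FPKM + 1) scale among the members called in petal, a difference of 2.08. Its corolla levels overlapped, with 3.64 and 1.19 FPKM on day 7 against 0.87 and 1.59 FPKM on day 1. ESCAROLA (c102190.graph_c1) had 1.73 and 1.35 FPKM in corolla on day 7, against 12.2 and 11.7 FPKM on day 1. At -2.35 this was the largest fall on the log2(FPKM + 1) scale among the members called in corolla. That scale understates changes of weak genes. The ER lumen protein-retaining receptor (c95228.graph_c0), which returns proteins to the endoplasmic reticulum, had 16.4 and 12.9 FPKM in corolla on day 7, against 37.3 and 31.8 FPKM on day 1.

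Members close to the limits of the choice were as follows, all from the authors' deposited tables. IREH1 was closest to the fold limit in corolla, with an authors' log2 fold change of 1.05, and RPK2 closest to the FDR limit there, with an authors' FDR of 0.00970. In petal c102141.graph_c0 was closest to the fold limit, with an authors' log2 fold change of -1.19, and the At1g68400-like c111931.graph_c0 closest to the FDR limit, with an authors' FDR of 0.00974. Genes just outside these limits have no description in the tables used here.

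The day difference could be tested where a member had been described only through the other tissue. With limma on log2(FPKM + 1), a gene was tested if 2 or more libraries of the tissue reached 1 FPKM, at a false discovery rate of 0.05 over all of them. Of the 43 members called in corolla only, 39 were tested in petal and 15 passed, 5 higher and 10 lower on day 7. This is 38.5% of those tested, against 10.2% of all 23433 genes (4.12% higher and 6.05% lower) and 32.4% of 887 other genes described through corolla only. All 15 had the sign of their corolla change. Of all 43, passing or not, 41 had the same sign in petal, which is 95.3%, against 90.7% of the other genes described through corolla only and 71.1% of all genes tested over the 8 libraries. These members had also missed the authors' call in petal, which leans the set toward small differences there. With the members called in both tissues added, 29 of 54 tested passed in petal. The added members were chosen through their petal calls, so this count is no independent support. None of the 43 passed in petal when the filter on low FPKM was dropped, nor when either petal library of day 1 was left out. At an unadjusted p below 0.05, limma counted 29, 16 and 21 of them in those 3 cases. Over all genes the petal count also fell then, to 452 without the filter and to 251 and 461 without day 1 repeat 1 and repeat 2, against 2384.

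The petal differences of largest size in that set were those of ESCAROLA and BAM1. ESCAROLA had 2.01 and 1.20 FPKM in petal on day 7, against 9.21 and 5.63 FPKM on day 1 (log2 difference -1.68 ± 0.32 SE, limma adjusted p = 0.0383). BAM1 (c104416.graph_c0) had 1.25 and 2.52 FPKM on day 7, against 7.19 and 5.92 FPKM on day 1 (-1.42 ± 0.31 SE, limma adjusted p = 0.0485). For CIPK10 the log2 difference in petal was -1.29 ± 0.25 SE (limma adjusted p = 0.0368), and for CIPK2 it was -1.03 ± 0.13 SE (limma adjusted p = 0.0160). Both CIPK genes were thus lower at bloom in petal as in corolla. They share the nr name CBL-interacting protein kinase 18-like protein, and CIPK10 had no Pfam entry. Whether they are pieces of 1 transcript was not tested. The TMK1-like c98968.graph_c1 was higher in petal at bloom, with 34.2 and 28.2 FPKM on day 7 against 12.2 and 14.9 FPKM on day 1 (1.15 ± 0.18 SE, limma adjusted p = 0.0247). Its relative c109157.graph_c0 was lower, with 22.8 and 19.5 FPKM on day 7 against 45.8 and 42.0 FPKM on day 1 (-1.02 ± 0.15 SE, limma adjusted p = 0.0205). The opposite directions of this TMK1 pair were therefore seen in both tissues. IREH1 had 23.2 and 18.9 FPKM in petal on day 7, against 9.70 FPKM in each library of day 1 (1.03 ± 0.17 SE, limma adjusted p = 0.0277). At1g33260 had 3.37 and 3.61 FPKM in petal on day 7, against 7.92 and 8.57 FPKM on day 1 (-1.04 ± 0.21 SE, limma adjusted p = 0.0400, and 0.0557 with the repeat number as a block). With that block BAM1 also lost its petal call, at limma adjusted p = 0.0524. Over the alternatives run, the adjusted p ranged from 0.00424 to 0.257 for At1g33260 and from 0.0118 to 0.260 for BAM1.

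In the other direction, 13 of the 22 members called in petal only were tested in corolla and 3 passed, all lower on day 7. This is 23.1%, close to the 21.5% of all 22407 genes that passed in corolla (6.52% higher and 15.0% lower), and less than the 46.2% of 312 other genes described through petal only. The sign was the same as in petal for 20 of the 22. MKK3 was the steadiest of the 3, with 43.1 and 39.7 FPKM in corolla on day 7, against 83.9 and 80.8 FPKM on day 1 (-0.98 ± 0.09 SE, limma adjusted p = 0.00414). Its call was kept under all alternatives run. The inactive receptor kinase c102141.graph_c0 had 11.7 and 10.5 FPKM on day 7, against 19.1 and 18.7 FPKM on day 1 (-0.72 ± 0.12 SE, limma adjusted p = 0.0196, and from 0.0114 to 0.137 over the alternatives run, the highest without day 1 repeat 1). The At4g30520-like c100334.graph_c2 shares its component with c100334.graph_c0, which was called in corolla, so its own test may not be independent. It had 1.07 and 2.33 FPKM on day 7, against 12.9 and 6.68 FPKM on day 1 (-1.97 ± 0.40 SE, limma adjusted p = 0.0294). Its adjusted p was 0.0608 with the repeat number as a block, 0.0741 with no filter on low FPKM and 0.131 without day 1 repeat 1, in a range from 0.00682 over the alternatives run, so that the call was lost in those 3 fits. The count was 1 of the members without corolla day 1 repeat 1, where the count over all genes was 921 instead of 4820, and 5 with all 8 libraries in 1 fit. With the members called in both tissues added, 16 of 26 tested passed in corolla. The added members were chosen through their corolla calls, so this count is no independent support either.

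**Figure D3:**
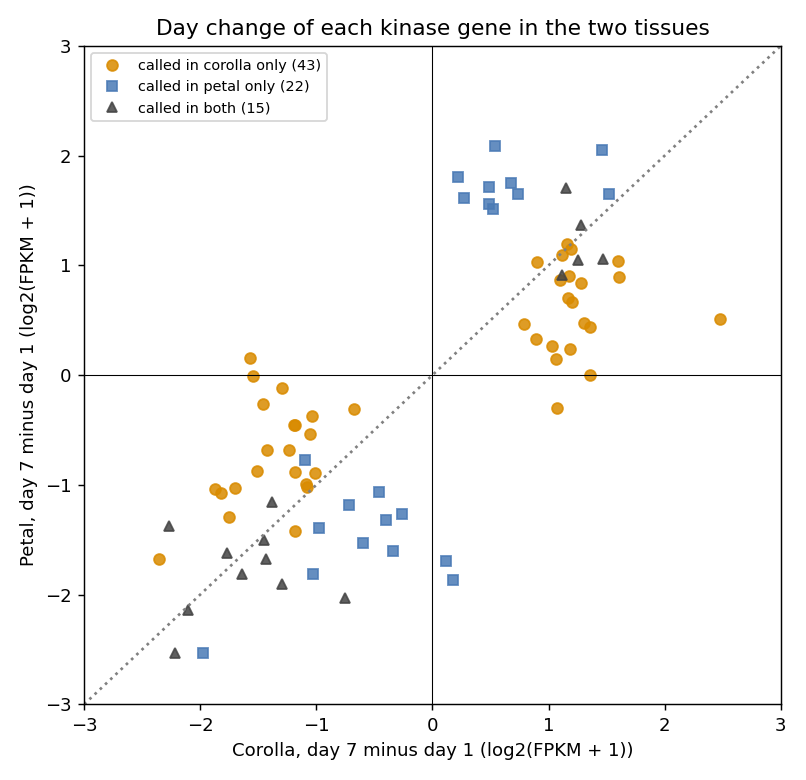
Difference between day 7 and day 1 in corolla (horizontal axis) and in petal (vertical axis), both in log2(FPKM + 1), for each of the 80 genes, with markers for the tissue of the authors' call; the dotted line marks equal differences. Points called in both tissues all lie in the lower left (10) or the upper right (5), and 4 of the others have opposite signs in the tissues.

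Averaged over both days, kinase members were more often higher in petal than in corolla. Of the 79 members tested over all 8 libraries, 43 passed limma at a false discovery rate of 0.05, 11 higher in corolla and 32 higher in petal. A gene could enter this test through 1 tissue alone, and a gene that does so by being high there had to differ. Of the 79 members, 15 reached 1 FPKM in 2 libraries of 1 tissue only, among them 7 of the 43, of which 2 were higher in corolla and 5 in petal. The other 64 members gave 9 higher in corolla and 27 higher in petal, with a median difference of -0.42. Over all 79, passing made up 54.4%, with 13.9% higher in corolla and 40.5% higher in petal. Over all 26460 genes 22.0% passed, 8.78% higher in corolla and 13.3% higher in petal. The 1817 other described genes, chosen by the authors' calls in the same way, passed in 58.6% of cases, with 30.7% higher in corolla and 28.0% higher in petal. Passing was thus about as common among the kinase members as among other described genes, with more of the members' passes on the petal side. The median difference, corolla minus petal on the log2 scale, was -0.44 over the members tested, 0.01 over other described genes and -0.08 over all genes. The lean over all genes depends on the scaling: 39.8% of their calls were higher in corolla on FPKM as deposited, against 52.0% after TMM scaling and 52.1% after median-of-ratios scaling, while the members stood at 11 and 31 with either. On day 7 alone 3 members were higher in corolla and 20 higher in petal, and on day 1 alone 10 and 22. Over all 26460 genes these counts were 1074 and 1652 on day 7, and 1617 and 2063 on day 1. Each single day shares libraries with the calls that chose the members, so their counts by day are a description. Among members that reached 1 FPKM in 2 libraries of each tissue, 5 and 16 of 36 surface receptors and 4 and 11 of 24 other kinases were higher in corolla and in petal.

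By class, the 3 PERK genes and both LRK10 genes were higher in petal. Of the 3 lectin or S-domain kinases that reached 1 FPKM in 2 libraries of each tissue, lectin kinase IV.1 passed, higher in petal. The other 3 of that class (SD1-6, c70206.graph_c0 and c87755.graph_c0) entered the test through petal alone, a tissue of their call, and are left as the levels given above. Both FERONIA family genes were higher in corolla. Of the 24 leucine-rich repeat kinases that reached 1 FPKM in 2 libraries of each tissue, 2 were higher in corolla and 9 in petal. The largest difference was that of c103753.graph_c0 (At5g01020-like, a cytoplasmic kinase by Swiss-Prot alone). It had 7.64 and 4.08 FPKM in corolla on day 7 and 0.32 and 0.07 FPKM on day 1. Its petal levels were 17.9 and 14.5 FPKM on day 7 and 10.2 and 11.9 FPKM on day 1, above every corolla library (-2.35 ± 0.20 SE, limma adjusted p = 0.000111). Lectin kinase IV.1 had 5.39 and 6.97 FPKM in petal on day 7 and 3.71 and 3.08 FPKM on day 1, all above its 4 corolla libraries (-1.74 ± 0.18 SE, limma adjusted p = 0.000288). CRK10 also stood apart by tissue, with petal levels of 18.4 and 22.6 FPKM on day 7 and 16.2 and 17.5 FPKM on day 1 (-1.46 ± 0.13 SE, limma adjusted p = 0.000140). The inactive receptor kinase c107260.graph_c0 was higher in petal on both days (-1.70 ± 0.13 SE, limma adjusted p = 7.69e-05). WNK5 was also higher in petal on both days (-1.44 ± 0.11 SE, limma adjusted p = 5.67e-05). PERK1 c108486.graph_c1 had 7.06 and 3.71 FPKM in petal on day 7 and 13.5 and 10.6 FPKM on day 1 (-1.49 ± 0.23 SE, limma adjusted p = 0.00247). The average for CIPK6 (-1.52 ± 0.28 SE, limma adjusted p = 0.00599) came mainly from day 1, when corolla minus petal was -2.54, against -0.49 on day 7. The high petal libraries of day 1 also gave CIPK6 its call, so this test is not independent of the choice.

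Among the genes higher in corolla, At1g33260 had corolla levels above every petal library (1.67 ± 0.11 SE, limma adjusted p = 3.12e-05). STN8 did as well (1.62 ± 0.20 SE, limma adjusted p = 0.000777). The green-tissue sums were also higher in corolla on both days, and their part in the STN8 difference was not tested. CDL1 had 1.57 and 0.85 FPKM in petal on day 7 and 0.04 and 0.32 FPKM on day 1, below its corolla levels of the same day. It entered the test through corolla alone, the tissue of its call, so no test is given. The inactive At1g66830-like c107750.graph_c1 had 7.65 and 7.44 FPKM in corolla on day 7 and 14.3 and 19.2 FPKM on day 1. The petal libraries held 3.71 and 4.38 FPKM on day 7 and 5.32 and 5.71 FPKM on day 1 (1.10 ± 0.13 SE, limma adjusted p = 0.000791). BAM3 c107943.graph_c0 had 0.13 and 0.43 FPKM in petal on day 7 and 0.49 and 0.56 FPKM on day 1. It too entered through corolla alone, with 1 FPKM reached only in the day 1 libraries of its call, and is given as a description. The CIPK1 gene c97134.graph_c0 passed narrowly (0.88 ± 0.26 SE, limma adjusted p = 0.0443), lost its call without any 1 of 5 libraries, and differed on day 1 only, by 1.75, against 0.02 on day 7. The high corolla libraries of day 1 also gave c97134.graph_c0 its call, so its test is not independent of the choice. CDPK3 (0.73 ± 0.09 SE, limma adjusted p = 0.000678) and FERONIA (0.44 ± 0.09 SE, limma adjusted p = 0.00857) were moderately higher in corolla.

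**Figure D4:**
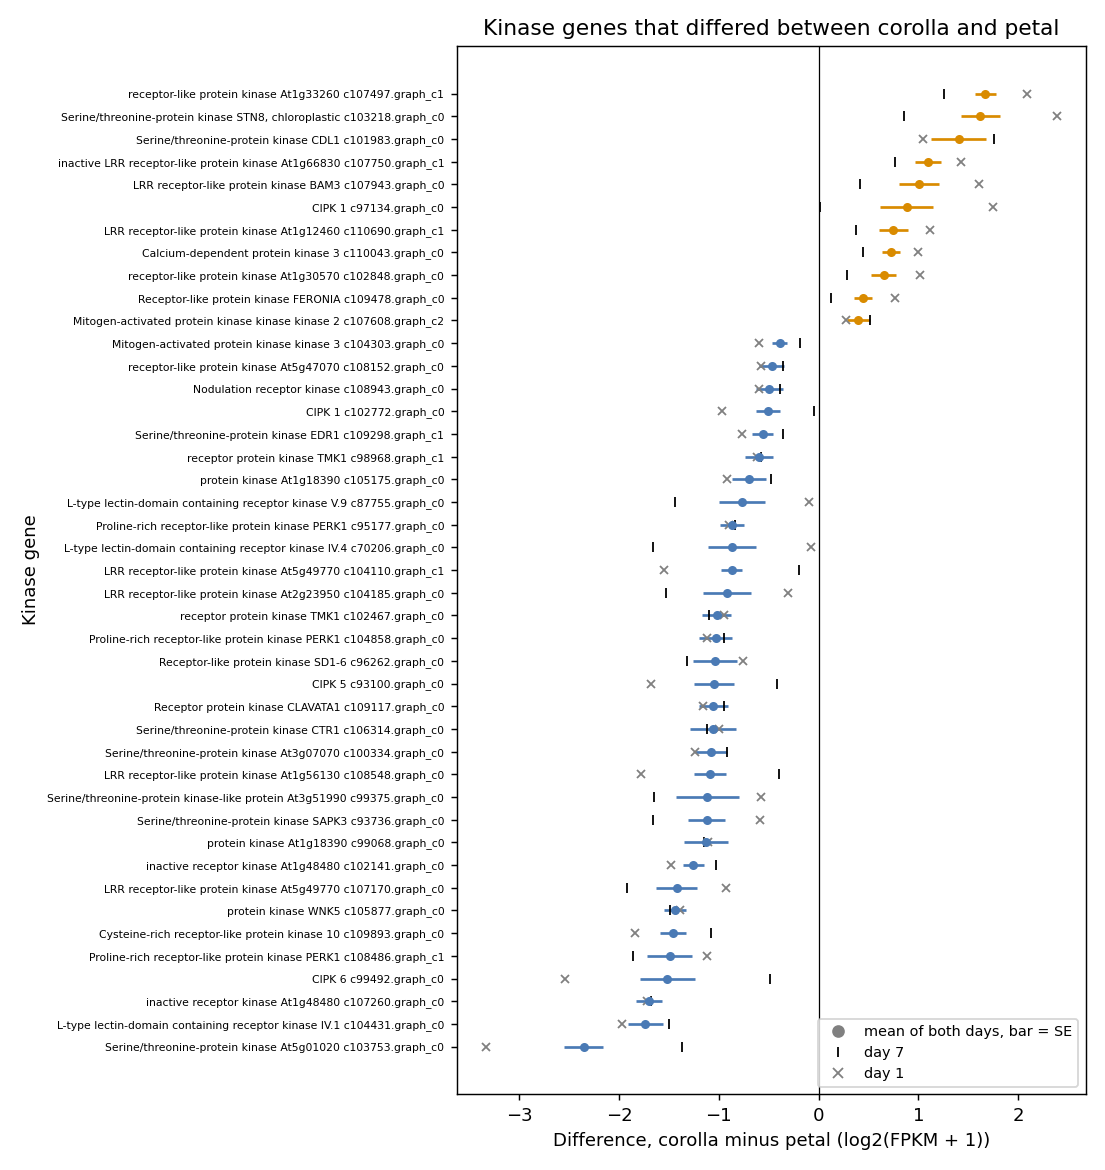
Corolla minus petal (horizontal axis, log2(FPKM + 1)) for the 43 kinase members that passed limma, 1 per row; points are the average over both days with bars of 1 SE, vertical ticks are day 7 alone and crosses day 1 alone. The 11 genes right of 0 are higher in corolla and the 32 left of 0 higher in petal, from 1.67 to -2.35; 7 of the 43 reached 1 FPKM in 2 libraries of 1 tissue only.

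Genes whose products work with kinases were gathered from the same descriptions: 7 genes named for protein phosphatases, 6 genes named for calcium sensors, 4 RALF-type peptides and 1 NADPH oxidase. They moved in more than 1 direction too. The phosphatase wording took in 6 genes of type 2C and a regulatory subunit of phosphatase 6 (c102666.graph_c0), and the calcium wording took in a kinesin-like calmodulin-binding motor protein (c104411.graph_c2) that is no sensor itself. By the authors' deposited tables all 6 type 2C genes were called in petal and rose. In corolla 2 of them also rose, while the regulatory subunit fell. Only called genes carry a description, so that these genes were called is no result. Among described genes outside the kinase members, 34.3% of 843 rose in petal and 30.9% of 1459 in corolla. Type 2C phosphatases remove phosphate from kinases of stress and abscisic acid signalling. Phosphatase c98638.graph_c0 had 57.7 and 30.4 FPKM in corolla on day 7, against 4.73 and 7.38 FPKM on day 1, and 57.7 and 54.3 FPKM in petal on day 7, against 16.1 and 20.3 FPKM on day 1. Genes named for calcium sensors split, with 2 higher and 3 lower in corolla, the kinesin-like gene among the 3, and 2 lower in petal by the authors' deposited tables. The RALF-like peptide gene c100161.graph_c0, of the ligand family of FERONIA, had 74.6 and 62.6 FPKM in corolla on day 7, against 207 and 203 FPKM on day 1. Another RALF-like gene, c111252.graph_c0, was higher in corolla at bloom, with 101 and 124 FPKM on day 7 against 18.1 and 18.4 FPKM on day 1, and did not exceed 2.32 FPKM in any petal library. Among partner genes described through the other tissue only, 4 of 5 tested in corolla passed, 3 higher and 1 lower. In petal 3 of 8 tested passed, 1 higher and 2 lower. The shares over all genes were 21.5% in corolla and 10.2% in petal. Of the genes outside the kinase members that were described through the other tissue only, 46.2% passed in corolla and 32.4% in petal. These were chosen by the authors' calls as the partner genes were, and are the closer comparison. With so few partner genes tested, their counts of passing genes are not set apart from these shares. The corolla count was 0 without corolla day 1 repeat 1 and 1 without repeat 2, and the petal count was 0 without either petal library of day 1. Between the tissues 5 of the 18 partner genes were higher in corolla and 4 higher in petal. Over all genes these shares were 8.78% and 13.3%. Over other described genes, chosen by the authors' calls in the same way, they were 30.7% and 28%. Of the 4, the phosphatase gene c97307.graph_c0 reached 1 FPKM in 2 libraries of petal only, the tissue of its call. It entered the test by being high there, so its pass is no independent support.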

How the data were processed

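Poly-A RNA of 8 libraries was sequenced and assembled de novo, per the labels' protocols and design text. Bowtie and RSEM, without versions, are listed per the submitters' processing notes. Per the file headers, the authors deposited for each tissue FPKM for all genes, an FDR (an adjusted p-value) and a log2 fold change of their own, and, for called genes alone, read counts and descriptions. Which tool gave the authors' test is not stated in those sources. Counts served only for depth and for genes at 0 counts, for which a floor of 3 counts per library was used. Both full tables list 50576 genes in common.

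Differences were tested with limma 3.58.1 under R 4.3.3, two-sided and with a trend, on log2(FPKM + 1), for genes reaching 1 FPKM in 2 or more libraries, with Benjamini-Hochberg adjustment over all tested genes at 0.05. Fold changes are on that scale, which understates changes of weak genes. The fits used 4 libraries per tissue, or all 8 for the tissue contrast (mean of both corolla days minus mean of both petal days). TMM factors came from edgeR 4.0.16. Python 3.11.15, pandas 2.3.3, numpy 2.4.6 and matplotlib 3.10.9 made the tables and plots. Simulated data with known changes were used to test the code.

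Repeat numbers 1 and 2 are given by the labels in each group. Deviations from group means correlated between corolla and petal at r = 0.293 on day 7 and 0.139 on day 1 across 26460 genes, which are not independent, so the tissue contrast was also fitted with the number as a block within the day (45 members passed, 12 higher in corolla and 33 in petal, against 43).

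The members, the kinase classes, the partner lists and the tests were chosen with earlier results of these data known. Class patterns were adjusted after the descriptions were read: a Raf-like class was added, and genes named only by an Arabidopsis locus were put into their class by hand. Named genes are, per tissue, the 8 called members with the largest rise and fall, up to 8 called in both tissues, up to 8 that passed in the tissue of no call, the 6 highest in corolla and in petal, the most abundant of each class, all calcium-linked, MAP kinase cascade and SnRK genes, and those next to a limit. The other genes named were chosen after their values were seen, to describe the classes. Reads of paralogs and of fragments of 1 transcript can be split between assembled genes, so single members of a family are uncertain.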

Additional observations from a re-analysis of the deposited data

Results flagged for a closer look

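The leucine-rich repeat kinase c108548.graph_c0 (At1g56130-like) had opposite directions in the tissues. In corolla it had 8.11 and 6.23 FPKM on day 7, against 2.47 and 3.29 FPKM on day 1, a difference of 1.07 on the log2(FPKM + 1) scale, and every corolla library of day 7 was above those of day 1. In petal it had 8.01 and 11.7 FPKM on day 7, against 11.8 and 12.7 FPKM on day 1, a difference of -0.30, and every petal library of day 7 was below those of day 1. The petal difference did not pass limma (adjusted p = 0.432), and the difference between the tissues was not tested, because the gene was chosen through its corolla call.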

How the results depend on the processing

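Alternatives changed 1 choice at a time: a pseudocount of 0.1, no filter on low FPKM, a minimum of 5 FPKM, TMM or median-of-ratios scaling, the repeat number as a block, all 8 libraries in 1 fit (which also sets the filter over 8 libraries, so that 22 instead of 13 members were tested in corolla and 42 instead of 39 in petal), 1 day alone for the tissue contrast, and each library left out in turn. Adding the members called in both tissues and a block within the day were chosen after seeing the data. So was keeping only members at 1 FPKM in 2 libraries of each tissue (36 passed against 43). Members called in both tissues were chosen through the tested tissue too, so counts with them added are no independent support. Fits of 1 day alone share libraries with the calls, so their member counts are a description.

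The corolla median of members described only through petal turned from -0.26 to 0.15 with no filter and with all 8 libraries in 1 fit, and to 0.12 without day 1 repeat 1, and the tissue lean over all genes turned with the scaling, as given above. For these members the corolla count was 3 and ranged from 1 to 4 with a library left out, the lowest without day 1 repeat 1. It was 5 with all 8 libraries in 1 fit, 16 with the members called in both tissues added, and 2 with the replicate block. For members described only through corolla, the petal count was 15, 0 with no filter on low FPKM, 0 to 17 with a library left out (0 without either library of day 1), 29 with the members called in both tissues added, and 12 with the replicate block. The unfiltered fit tests more genes, and a left-out library leaves 1 group with a single sample that is assumed to vary like the others. The tissue count of 43 was 23 on day 7 alone, 32 on day 1 alone, 31 to 45 with a library left out, and 42 with the replicate block over all groups. Partner genes passed in 4 cases in corolla (0 to 5 with a library left out) and in 3 in petal (0 with no filter, 0 to 4 with a library left out). At unadjusted p below 0.05, limma counted 4 partner genes in corolla without day 1 repeat 1, and 3 in petal under each setting that gave 0.

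In the single-gene tests chosen by rule, 46 of 322 alternatives ended a call, in 16 of 23 results, and no gene changed direction. All petal calls of members described through corolla ended without the filter and without either petal library of day 1. The 23 results include the tissue contrasts of CDL1 and BAM3, which entered through corolla alone and are given above only as descriptions. In the tissue contrast STN8, CIPK6 and the CIPK1 gene c97134.graph_c0 did not pass on day 7 alone, and PERK1 c108486.graph_c1 not on day 1 alone. The cause was not tested.

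Over all genes, 4820 passed in corolla, 2452 with no filter, and 921 and 1464 without day 1 repeat 1 and repeat 2. In petal 2384 passed, 452 with no filter, 251 and 461 without day 1 repeat 1 and repeat 2, 4662 without day 7 repeat 2 and 3921 with all 8 libraries in 1 fit. In the tissue contrast 5834 passed, 3680 on day 1 alone, 2726 on day 7 alone, and 3805, 3724, 3787 and 3747 without corolla day 1 repeat 1 and 2 and petal day 1 repeat 1 and 2. Repeat numbers of day 7 and day 1 within a tissue share only a number: deviations from the group means correlated at r = -0.00476 in corolla and 0.000841 in petal across 26460 genes, which are not independent. With 2 libraries per group, a member that did not pass is not shown to be unchanged.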

Other observations

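Small heat shock genes, summed over the 4 described, differed between repeats of day 1 in both tissues. They reached 519.6 and 484 FPKM in corolla on day 7, against 63.4 and 236 FPKM on day 1, and 53.6 and 48.3 FPKM in petal on day 7, against 33.3 and 219 FPKM on day 1. The higher library was repeat 2 in both tissues, and the part of this in the kinase results was not tested.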
